A study of Homo sapiens with 6 samples.

Results

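Pyrimidine and deoxynucleotide synthesis was followed through 10 genes, namely *CAD*, *DHODH*, *UMPS*, *CTPS1*, *CTPS2*, *UCK2*, *TYMS*, *DTYMK*, *RRM1* and *RRM2*. They were taken by symbol from a table of counts with 26485 gene names, and all 10 were among the 14877 genes that passed the filter on low counts. RNA-seq was measured in 6 cultures of HEK293, a human embryonic kidney cell line carrying adenoviral DNA. In 3 of them (the knockdown group) the long noncoding RNA *HSALNG0134318* was targeted by transient transfection with a Smart Silencer, which combines antisense oligonucleotides with small interfering RNAs, and 3 were controls, whose genotype is given as WT and whose descriptions begin with NC. The sources used here do not name what the control cultures received. *HSALNG0134318* had no row in the table, so the silencing itself was not checked in these counts. The study also ran RT-qPCR after the knockdown and lists primers for *HSALNG0134318*. *DHODH* was on the study's list of genes for congenital kidney and urinary tract anomalies, and the microRNA miR-3198 was named as one that could bind both it and *HSALNG0134318*. The study reported that *DHODH* expression was not affected by the knockdown. The comparison here describes *DHODH* again, together with the route of synthesis around it.

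Pyrimidines are built de novo by a short chain of enzymes. CAD carries out the first steps from glutamine and bicarbonate to dihydroorotate, DHODH oxidizes dihydroorotate to orotate at the inner mitochondrial membrane, and UMPS turns orotate into UMP. CTP is then made from UTP by the CTP synthases, while UCK2 recovers uridine and cytidine by phosphorylation. For DNA, ribonucleotide reductase, a complex of the large subunit RRM1 with the small subunit RRM2, reduces ribonucleotides to deoxyribonucleotides, TYMS methylates dUMP to dTMP, and DTYMK phosphorylates dTMP. *RRM2*, *TYMS* and *TK1* are known for expression that peaks when cells replicate DNA.

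A single gene of the 10, *RRM2*, was lower in the knockdown group, by 19.7%, and none was higher. At an unadjusted p under 0.05 in edgeR 2 of the 10 differed, *RRM2* and *UMPS*, against 26.9% of all genes tested, and DESeq2 and limma-voom also called 1 lower and 0 higher. The same counts were obtained without control replicate 2, whereas 0 genes were called when control replicate 1 or any knockdown culture was left out. In the latter fits the whole table also gave fewer called genes, from 233 to 294 lower and from 289 to 375 higher, against 690 and 804 with all cultures. Of all genes tested, 4.64% were called lower and 5.4% were called higher by the same rule, which was a Benjamini-Hochberg adjusted p under 0.05 over all 14877 genes in the quasi-likelihood test of edgeR. The log2 fold changes of the 10 genes ran from -0.32 for *RRM2* to 0.27 for *UMPS*, with a median of 0.05, against a median of -0.02 over all genes tested. In 3 of the 10 genes (*CAD*, *UMPS* and *RRM2*) all 3 knockdown cultures lay on one side of all 3 control cultures, and over all genes tested such a separation was seen in 32.2%. The count of called genes and the count without overlap were thus both near what the whole table gave.

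Counts totalled from 13900965 to 16869948 per culture, and the raw counts of the 10 genes lay between 224 (*DHODH*) and 5857 (*RRM2*). Values are given below as normalized counts, in which each culture was scaled to the same effective library size, and errors of log2 fold changes are standard errors (SE). Biological variation between cultures of a group, as a coefficient of variation, was 12.4%. All 8 genes chosen as marks of HEK293 cells (*PAX2*, *LHX1*, *NEFL*, *NEFM*, *VIM*, *CDH2*, *KRT8* and *KRT18*) had at least 95 counts in every culture. Of 9 markers of blood, endothelial, hepatic, squamous, muscle and glial cells, *CD3E* and *HBB* were at 0 throughout, none had more than 13 counts, and their summed counts were 14 to 16 for the knockdown cultures and 11 to 21 for the controls. Control replicate 2 had the highest value of all 6 cultures in 21 of the 39 tested genes of the wider pathway described below, against 4014 of all 14877 genes tested, and values that moved most without it are given beside the result. Since these are bulk cultures, fewer cells expressing a gene and less RNA per cell cannot be told apart.

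Per length of transcript, the 10 genes covered a wide range of levels in the control cultures. *RRM2* was the most abundant, with 111 ± 3.42 RPKM (SD, n = 3; RPKM are counts scaled to library size and to the length of the canonical GENCODE transcript), followed by *RRM1* with 89.6 ± 11.6 RPKM and *TYMS* with 65.9 ± 3.65 RPKM. *CTPS1* had 53.6 ± 1.51 RPKM and *DTYMK* 46.3 ± 12.9 RPKM, and these neighbours were the only ones whose control values overlapped. *CAD* followed with 28.4 ± 1.71 RPKM and *UCK2* with 15.4 ± 1.27 RPKM. *CTPS2* had 12.8 ± 1.06 RPKM, which placed it below *CTPS1*. The last steps of de novo synthesis were the least abundant, with *UMPS* at 6.46 ± 0.151 RPKM and *DHODH* at 3.73 ± 0.475 RPKM.

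*DHODH*, the gene of the study's list, encodes the only mitochondrial enzyme of the chain and is annotated at chr16:72008588-72027664 (GENCODE release 44, hg38, plus strand). The microRNA in question and the stretch of the *DHODH* 3′ UTR with which its seed could pair are shown because this microRNA links the gene to *HSALNG0134318* in the study. In the microRNA (RefSeq, GRCh38.p14) capitals mark the seed, bases 2 to 8, and in the *DHODH* transcript, at chr16:72024273-72024295 on the plus strand, capitals mark the bases complementary to it.
hsa-miR-3198: gUGGAGUCcuggggaauggaga
*DHODH* 3′ UTR: agaggaggGACTCCAtcttgagc

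This 7mer, GACTCCA, began at base 82 of the 3460-base 3′ UTR of the canonical *DHODH* transcript. None of the other 9 genes held it, and among the 13461 tested genes with a 3′ UTR in GENCODE it was found in 12.6%. A match of 7 letters is a description of the sequence and not a measured binding site.

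*DHODH* had 274, 234 and 291 normalized counts in knockdown replicates 1, 2 and 3 and 274, 224 and 287 in control replicates 1, 2 and 3. The groups overlapped almost completely, and in each of them replicate 2 was the lowest. The log2 fold change was 0.02 (95% interval from -0.30 to 0.35), which is smaller than the spread between cultures. No culture had more than 284 raw counts of *DHODH*, the lowest depth of the 10 genes, and its interval was among the widest.

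*CAD*, the trifunctional enzyme that starts the chain (chr2:27217369-27243943), had 3862, 3420 and 3419 normalized counts in the knockdown cultures and 2898, 3175 and 3256 in the control cultures. Every knockdown value was above every control value. Its log2 fold change came to 0.20 (SE 0.09, edgeR adjusted p 0.19), which did not pass the threshold, and to 0.12 after correction for GC content and length. *UMPS*, which completes UMP (chr3:124730433-124749273), had 753, 801 and 787 normalized counts against 638, 637 and 664. Its groups did not overlap either (log2 fold change 0.27, SE 0.10, 95% interval from 0.06 to 0.48, edgeR adjusted p 0.098). *UMPS* was not called in any of the 14 alternative analyses, in which its log2 fold change stayed between 0.23 and 0.30.

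The CTP synthases, 2 enzymes that make CTP from UTP with glutamine as the nitrogen donor, were not called. *CTPS1* (chr1:40979300-41012565) had 2222, 2310 and 2281 normalized counts in the knockdown cultures and 2265, 2238 and 2360 in the control cultures. It was the most even of the 10 genes, with a log2 fold change of -0.01 and a 95% interval from -0.19 to 0.17. *CTPS2* (chrX:16587999-16712936) had 870, 894 and 759 normalized counts against 774, 690 and 813. Its groups overlapped, and the log2 fold change was 0.15 (95% interval from -0.09 to 0.39, edgeR adjusted p 0.41). *UCK2*, the kinase for uridine and cytidine salvage (chr1:165827614-165911618), had 1175, 1192 and 1118 normalized counts against 1015, 1198 and 1124, with a log2 fold change of 0.06 (95% interval from -0.15 to 0.27).

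The thymidylate genes were not called. *TYMS* (chr18:657653-673578) had 1713, 1616 and 1569 normalized counts in the knockdown cultures and 1497, 1652 and 1648 in the control cultures, and its log2 fold change was 0.03 (95% interval from -0.16 to 0.22). GENCODE places *ENOSF1* and *TYMSOS* on the opposite strand over *TYMS*, and although the libraries were made with a stranded protocol, the strand setting of the counting is not given in the sources used here. *TYMSOS* averaged 154 normalized counts in the knockdown cultures against 96.8 in the controls (log2 fold change 0.66, edgeR adjusted p 0.072), and *ENOSF1* was likewise not called (log2 fold change 0.21, adjusted p 0.18). *DTYMK*, the dTMP kinase (chr2:241675747-241686944), had 672, 690 and 674 normalized counts in the knockdown cultures, against 586, 965 and 647 in control replicates 1, 2 and 3. The control group spread far more than the knockdown group and replicate 2 lay above the other 5 cultures. The log2 fold change of *DTYMK* was -0.11 with all cultures and 0.14 without control replicate 2, and neither was called.

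The only called gene among those followed was *RRM2*, of ribonucleotide reductase. As stated above, the count of called genes was near what the whole table gave, so the call did not single out this step. The call of *RRM2* was kept in 9 of the 14 alternative analyses. With the replicate number of the sample titles as a block it was lost (edgeR adjusted p 0.11). The labels do not say that cultures with the same replicate number belonged together. *RRM2*, the small subunit that holds the tyrosyl radical, is annotated at chr2:10120698-10211725 on the plus strand. It had 4434, 4259 and 4355 normalized counts in knockdown replicates 1, 2 and 3 and 5480, 5227 and 5544 in control replicates 1, 2 and 3. The groups were well apart and each was tight. *RRM2* fell by 19.7% (log2 fold change -0.32, SE 0.08, 95% interval from -0.49 to -0.14, edgeR adjusted p 0.030). The size of the fall hardly depended on the choice of cultures, with log2 fold changes between -0.34 and -0.29 when 1 culture was left out, but the call did. The adjusted p was 0.0045 without control replicate 2 and 0.046 without control replicate 3. Leaving out knockdown replicate 1, 2 or 3 gave 0.10, 0.17 and 0.15, and leaving out control replicate 1 gave 0.082. GENCODE lists 3 pseudogenes named after *RRM2*, none of which has a row in the table, so reads from near-identical copies could have been lost or assigned to *RRM2*. The same limit holds for *TYMS*, with 2 such pseudogenes.

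*RRM1*, the large subunit that holds the catalytic and allosteric sites, is annotated at chr11:4094707-4138932, also on the plus strand. It had 4770, 4376 and 4425 normalized counts in the knockdown cultures and 4130, 3749 and 4830 in the control cultures. The groups overlapped, and its log2 fold change came to 0.09 (SE 0.10, 95% interval from -0.13 to 0.32, edgeR adjusted p 0.60). Among the controls it was lowest in replicate 2 and highest in replicate 3, and the log2 fold change was 0.01 without the former and 0.20 without the latter, neither of which was called. Whether the subunits moved differently was tested with the ratio of their counts within each culture, which needs no scaling between libraries. The log2 ratio of *RRM2* to *RRM1* was -0.11, -0.04 and -0.02 in the knockdown cultures and 0.41, 0.48 and 0.20 in the control cultures. There were thus 0.962 *RRM2* counts for each *RRM1* count in the knockdown cultures, compared with 1.28 among the controls. The difference of -0.42 on the log2 scale reached the smallest p that 3 against 3 cultures allow (two-sided exact permutation test, p = 0.10, adjusted p = 0.20 over 4 ratios). The 3 knockdown ratios lay below all control ratios, and the difference was larger than the SD of either group (0.04 and 0.15).

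For the other pairs, the log2 ratio of *CTPS2* to *CTPS1* was -1.44 ± 0.13 (SD, n = 3) in the knockdown and -1.60 ± 0.09 in the control cultures, and the values overlapped (exact permutation test, p = 0.30, adjusted p = 0.40). The log2 ratio of *TYMS* to *DTYMK* was 1.27 ± 0.07 and 1.16 ± 0.33 (exact permutation test, p = 0.90, adjusted p = 0.90), with control replicate 2 at 0.78 and the other 5 cultures between 1.22 and 1.35.

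**Figure D1:**
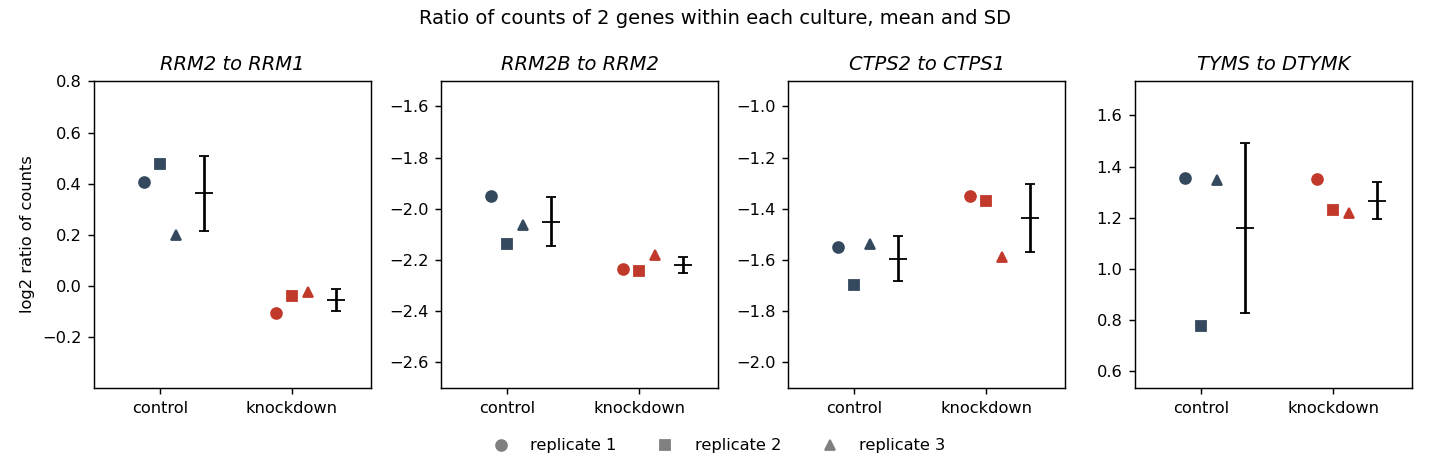
Log2 ratio of the counts of 2 genes within each culture (vertical axes, each spanning the same width), with symbols for the replicates and black bars for the mean and SD of 3 cultures. The ratio of *RRM2* to *RRM1* was between -0.11 and -0.02 in the knockdown group and between 0.20 and 0.48 in the control group.

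The promoters of the reductase subunits are shown because the small subunit was called and the large subunit was not. For each, the 250 bases before the RefSeq transcription start (GRCh38.p14) were searched on both strands for CCAAT, the letters bound by the factor NF-Y. The 100 bases nearest the start are printed, with CCAAT in capitals, for *RRM2* at chr2:10122639-10122738 and for *RRM1* at chr11:4094585-4094684, both on the plus strand.
*RRM2*: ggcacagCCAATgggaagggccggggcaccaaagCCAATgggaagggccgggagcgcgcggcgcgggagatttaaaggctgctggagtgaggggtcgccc
*RRM1*: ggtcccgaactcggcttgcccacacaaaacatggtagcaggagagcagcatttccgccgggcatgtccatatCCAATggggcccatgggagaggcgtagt

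The whole *RRM2* window held 3 copies of CCAAT, 2 of them in the printed stretch, and that of *RRM1* held 1. GENCODE has *RRM2* transcripts that start further upstream than the RefSeq start used here. Of 27305 promoters of this length, 33% held at least 1 copy and 3.09% held at least 3. Among the other genes, *DTYMK* held 2 copies, and *CAD*, *DHODH* and *UCK2* held 1 each. The letters TTTCCCGC, TTTCGCGC, TTTGCCGC and TTTGGCGC, forms of the E2F motif, were searched on both strands and were found in 2.79% of the promoters, among the 10 genes in that of *TYMS* alone. A motif match is a description of these letters and not evidence of binding.

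Around the 10 genes, 42 others of pyrimidine and deoxynucleotide metabolism were examined as a list, of which 39 were tested. In the knockdown group 4 of them were lower (*DCK*, *CMPK1*, *RRM2B* and *TK1*), 2 were higher, of which *TK2* is described below, and 33 were not called. The shares called lower and higher over all genes tested were 4.64% and 5.4%. The median log2 fold change of the list was -0.10. Those not tested were *CDA*, *DPYS* and *UPB1*, with at most 18 counts in any culture. Leaving out control replicate 2 gave 5 lower and 3 higher genes. Leaving out knockdown replicate 1, 2 or 3 gave 3, 2 and 2 lower genes, with 0 higher genes in each case. Leaving out control replicate 1 gave 4 lower and 0 higher. Over all genes tested, 690 were lower and 804 higher with all cultures. Without knockdown replicate 1, 2 or 3 these counts were 252 and 341, 247 and 289, and 233 and 297. Without control replicate 1, 2 or 3 they were 294 and 375, 1238 and 1274, and 994 and 1087. The list is described by its counts and was not tested as a set.

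Among the called genes of the list, *DCK* and *CMPK1* had the largest falls. *DCK*, which phosphorylates deoxycytidine and is the entry of deoxycytidine salvage, had 251, 273 and 264 normalized counts in the knockdown cultures and 583, 491 and 596 in the control cultures. It fell by 52.8% (log2 fold change -1.08, SE 0.12, edgeR adjusted p 0.00042). *CMPK1*, the kinase for UMP and CMP that follows UMPS, had 1334, 1536 and 1366 normalized counts against 2560, 2330 and 2741. It fell by 44.5% (log2 fold change -0.85, SE 0.10, edgeR adjusted p 0.00043). Both genes were called in all 14 alternative analyses. *DCK* overlaps *MOB1B* on the same strand in GENCODE, and *MOB1B* was not called (log2 fold change -0.45, edgeR adjusted p 0.096). The nucleoside diphosphate kinases *NME1*, *NME2*, *NME3*, *NME4* and *NME6* were not called, and control replicate 2 had the highest value of all cultures for each of them.

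*RRM2B*, the alternative small subunit of ribonucleotide reductase, known as a p53 target that serves DNA repair and mitochondrial DNA, was lower as well. It had 943, 900 and 960 normalized counts in the knockdown cultures and 1418, 1187 and 1327 in the control cultures (log2 fold change -0.49, SE 0.10, edgeR adjusted p 0.010). The groups did not overlap. Its adjusted p rose to 0.072 without knockdown replicate 2 and to 0.055 without replicate 3 of that group. After correction for GC content and length its log2 fold change was smaller, at -0.35, and still called (edgeR adjusted p 0.014). The log2 ratio of *RRM2B* to *RRM2* within cultures was -2.22 ± 0.03 (SD, n = 3) in the knockdown and -2.05 ± 0.09 in the control cultures, a difference of -0.17 (exact permutation test, p = 0.10, the smallest possible, adjusted p = 0.20). After correction for GC content and length this difference was -0.048 (exact permutation test, p = 0.70). Per length, *RRM2B* had 18.2 RPKM in the control group, well below *RRM2* and *RRM1*.

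The thymidine kinases were called in opposite directions. *TK1*, the cytosolic enzyme, had 932, 875 and 819 normalized counts in the knockdown cultures and 1005, 1454 and 1160 in the control cultures, and it fell by 27.5% (log2 fold change -0.46, SE 0.13, edgeR adjusted p 0.046). Leaving out knockdown replicate 1, 2 or 3 gave an adjusted p of 0.10, 0.15 and 0.18, leaving out control replicate 3 gave 0.056, and limma-voom gave 0.058. Without control replicate 2, where *TK1* was highest, the log2 fold change was -0.31 and still called (adjusted p of 0.046). *TK2*, the mitochondrial enzyme, had 389, 365 and 346 normalized counts against 254, 294 and 272. It rose by 34.2%, and its adjusted p of 0.0499 in edgeR only just passed the threshold. That call was lost in 8 of the 14 alternative analyses, among them the fits that left out knockdown replicate 1 (0.17), 2 (0.17) or 3 (0.13), or control replicate 1 (0.14) or 3 (0.063). The mitochondrial deoxyguanosine kinase *DGUOK* and the uridine kinases *UCK1* and *UCKL1* were not called.

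*DUT*, which removes dUTP, had 572, 727 and 694 normalized counts in the knockdown cultures against 660, 876 and 620 in the control cultures, with a log2 fold change of -0.12 that was 0.05 without control replicate 2. GENCODE lists 8 pseudogenes named after *DUT*, none with a row in the table, so the limit given for *RRM2* applies here too. None of the 5 transporters and none of the 8 tested genes of breakdown and phosphorolysis was called.

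**Figure D2:**
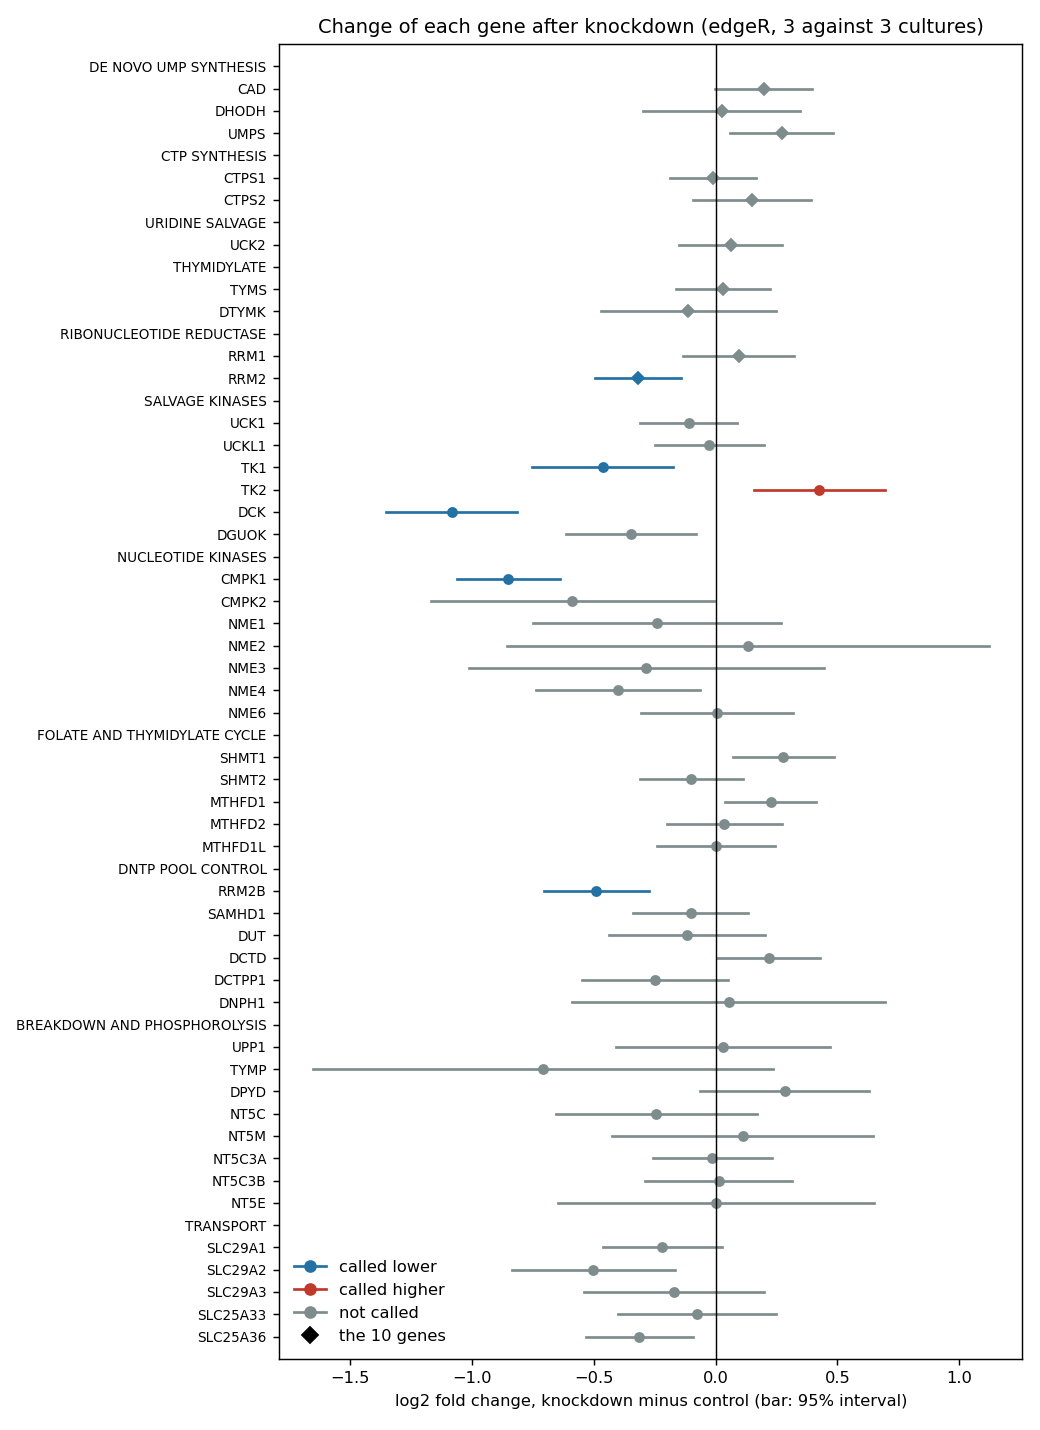
Log2 fold change (horizontal axis, knockdown minus control) of the 10 genes (diamonds) and 37 other tested genes of the pathway (circles), grouped by role, with bars for the 95% interval. Colours mark genes called lower, called higher and not called, and *RRM2* is the only coloured diamond, at -0.32.

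Since several of these genes follow the cell cycle, genes of S phase and of G2/M were counted beside them. Of 38 S phase genes (without the 10), 3 were lower, 3 were higher and 32 were not called, with a median log2 fold change of -0.06. The shares over all genes tested were 4.64% lower and 5.4% higher. Lower were *CCNE2*, a cyclin of the start of S phase (log2 fold change -0.68, edgeR adjusted p 0.0035), *PCNA*, the sliding clamp of DNA polymerases (-0.35, 0.027), and *ATAD2* (-0.32, 0.049). Higher were *NASP*, a histone chaperone (0.64, 0.011), *GINS2*, a subunit of the replicative helicase (0.36, 0.034), and *UNG*, which removes uracil from DNA (0.32, 0.035). The summed normalized counts of the S phase list were 77258, 78133 and 77751 in the knockdown cultures and 80782, 74972 and 80898 in the control cultures, and the groups overlapped. With any knockdown culture or control replicate 1 left out, 1 gene of this list was called lower and at most 1 higher, whereas 6 were lower without control replicate 2 and 6 higher without control replicate 3. The counts over all genes tested, given above, also fell in the former fits and rose in the latter. *CCNE2* was called in all 14 alternative analyses. Of these 14, *NASP* was called in 11, *PCNA*, *GINS2* and *UNG* in 9 each, and *ATAD2* in 4.

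Of 26 G2/M genes, 3 were lower and 0 were higher, against 4.64% lower and 5.4% higher of all genes tested. The lower genes were *ANLN*, which organizes the cleavage furrow (log2 fold change -0.80, edgeR adjusted p 0.0015), *CDK1*, the mitotic kinase (-0.47, 0.0071), and *TPX2*, a spindle assembly factor (-0.43, 0.034). At an unadjusted p under 0.05 in edgeR, 9 of the 26 differed, against 26.9% of all genes tested, and limma-voom and DESeq2 also called 0 higher. The median log2 fold change was -0.14, and 8 genes were lower without control replicate 2, against 1 with knockdown replicate 3 left out and 2 with control replicate 1 or another knockdown culture left out. The count of lower genes over all genes tested rose and fell in the same fits. *ANLN* was called in all 14 alternative analyses, *CDK1* in 13 and *TPX2* in 9. The summed counts of this list also overlapped between groups, at 101780, 109308 and 106654 in the knockdown and 117422, 99651 and 124628 in the control cultures. Their part in the fall of *RRM2* and *TK1* was not tested.

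Among 14 genes of the E2F, pocket protein and MYC families, regulators of S phase and of nucleotide synthesis, *E2F3* (log2 fold change -0.55, edgeR adjusted p 0.010), *E2F5* (-0.55, 0.033) and *E2F7* (-0.40, 0.017) were lower. *RBL2*, the pocket protein p130 of resting cells, was higher, with 2649, 2800 and 2847 normalized counts in the knockdown cultures against 1703, 1425 and 1798 (log2 fold change 0.75, adjusted p of 0.0012). *RBL2* was called in all 14 alternative analyses, *E2F3* in 13, and *E2F5* and *E2F7* in 10 each. The number of lower genes in this list was 0 with knockdown replicate 1 left out, 1 with control replicate 1 or another knockdown culture left out, and 5 with control replicate 2 left out. Over all genes tested, that number also fell in the former fits and rose in the last. The other 10 genes of this list were not called, and of all genes tested 4.64% were called lower and 5.4% higher.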

How the data were processed

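The authors deposited whole-number counts of reads per gene for 6 HEK293 cultures, without normalization. Per the study's methods, reads passed FastQC, Trim Galore, SortMeRNA, STAR and featureCounts, and the submitters' processing notes name hg38. The gene annotation, the strand setting and the treatment of multi-mapping reads are not given in the sources used here. Groups and replicate numbers came from sample titles. The study's methods describe the cultures of a group as separate experiments. Normalized counts and RPKM were computed here.

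Genes were filtered with filterByExpr, scaled by TMM, and compared between groups by the quasi-likelihood F test of edgeR 4.0.16 with robust estimation in R 4.3.3. P values were adjusted by Benjamini-Hochberg over 14877 genes and called under 0.05. Alternatives were DESeq2 size factors, library sizes alone, no filter, a minimum of 10 counts in all cultures, a replicate block, the DESeq2 1.42.0 Wald test, limma-voom (limma 3.58.1), a loess correction (span 0.3) for GC content and transcript length over 14465 genes, and each of the 6 cultures left out. The main edgeR fit, the replicate block, the GC content and length correction, limma-voom and the DESeq2 Wald test were tested on simulated data. The other alternatives were not. Positions, transcript lengths and 3′ UTRs were taken from GENCODE release 44, which matched 23161 names by symbol and 1349 by an older symbol.

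Named genes were the 10 genes, all but 1 of the called genes of the wider pathway, at most 5 called genes per direction of the other lists, and *RRM2B*, *TK1* and *DUT*. The counts of the wider pathway include 2 genes whose own values are not given. Other genes of the lists are mentioned without single statistics, and *TYMSOS*, *ENOSF1* and *MOB1B* were added for their overlap. Members, lists and tests were chosen with earlier results of these data known. Figures were drawn with matplotlib 3.10.9.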

Additional observations from a re-analysis of the deposited data

How the results depend on the processing

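Over all alternatives, single-gene results kept their direction and side of the threshold in 358 cases, lost the call in 67 and changed direction in 9. Of the 10 genes, the number called lower was 0 with the replicate number as a block (adjusted p of *RRM2* 0.11) and from 0 to 1 when 1 culture was left out. Of the wider pathway, 7 genes were lower after correction for GC content and length and from 2 to 5 when 1 culture was left out, and 1 gene was higher with no filter, with the replicate block and with limma-voom, and from 0 to 3 when 1 culture was left out. With the replicate block, 1 S phase gene was lower and 1 was higher. After correction for GC content and length, 6 S phase genes were lower and 5 were higher, 7 G2/M genes were lower and 2 regulators were higher. No filter and the DESeq2 Wald test also gave 2 higher regulators. When 1 culture was left out, from 1 to 6 S phase genes were lower and from 0 to 6 higher, from 1 to 8 G2/M genes were lower, and from 0 to 5 regulators were lower and from 1 to 2 higher. Over all genes tested, from 233 to 1238 were lower and from 289 to 1274 higher in those fits. The log2 fold change of *DHODH* was -0.023 after correction for GC content and length, and the cause was not tested. When 1 culture was left out, the log2 fold change ran from -0.078 to 0.11 for *DHODH*, from -0.027 to 0.018 for *CTPS1*, from -0.015 to 0.059 for *TYMS*, from -0.25 to 0.14 for *DTYMK*, from 0.085 to 0.219 for *CTPS2*, from 0.014 to 0.205 for *RRM1* and from -0.20 to 0.051 for *DUT*, and the difference in the log2 ratio of *TYMS* to *DTYMK* ran from -0.085 to 0.20. The block used the replicate numbers of the titles, and the sample descriptions number the cultures differently. The labels do not say whether cultures with the same replicate number shared a batch. Deviations from the group means correlated from -0.199 to -0.044 between them, which cannot decide it with 3 cultures per group. The block gave 619 lower and 714 higher genes against 690 and 804 without it. Of all genes tested, 1490 were lower and 1357 higher after correction for GC content and length. Of the 10 genes, *DHODH* had the lowest depth, with at most 284 counts per culture.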
